A study of Mus musculus with 4 samples.

Results

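Mt1, Mt2, Slc7a11, Hmox1, Srxn1, Gclm and Txnrd1 are 7 genes of metal and oxidant defence, read here among the 32285 genes of a single-cell UMI table from mouse esophagus. They were chosen by their measured levels in these same cells, across lineages and in both genotypes. Levels by lineage are therefore given as description, with no test, and each genotype test is read against all genes tested in the same comparison. The cells came from 5 Il20rb knock-out mice (KO1 to KO5) and 5 wild-type mice (WT1 to WT5), 1 hashtag antibody per animal. IL20RB is the receptor chain through which the cytokines IL-19, IL-20 and IL-24 all signal. All 10 animals went through a model of eosinophilic esophagitis: calcipotriol (MC903, 1 nmol) and ovalbumin (OVA, 5 mg/mL) on the ear each day for 14 days, then OVA in the drinking water (1.5 g/l) for 4 days and 50 mg OVA by gavage on days 15 and 17. Tissue was taken on day 18, and viable CD45+ (immune) cells were sorted from the pooled suspensions. No unchallenged animal was among the samples, so each genotype comparison is within the model. The sources used here give no strain, age or design of the knock-out allele.

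Metallothioneins are small cysteine-rich proteins that bind zinc and copper; their genes are switched on by the zinc-sensing factor MTF1 through metal response elements and also by glucocorticoids. NRF2 (gene Nfe2l2) is held down by KEAP1, and on oxidative or electrophilic stress it binds antioxidant response elements together with small MAF proteins, while BACH1 occupies the same elements as a repressor. Among its targets, SLC7A11 is the cystine-importing chain of the system xc- exchanger, GCLM the modifier subunit of the rate-limiting enzyme of glutathione synthesis, HMOX1 the inducible heme oxygenase, SRXN1 the enzyme that restores over-oxidised peroxiredoxins and TXNRD1 the cytosolic thioredoxin reductase. Slc7a11 is also a target of ATF4, the factor of the amino acid stress response.

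The table held 6054 cells from 2 droplet wells that each aimed at 10000, 2633 of them knock-out and 3421 wild-type, with 1805883 to 5666994 UMIs per knock-out animal and 2884534 to 5113431 per wild-type animal. Ptprc, which encodes CD45, gave a UMI in 89.8% to 92.8% of cells in knock-out animals and in 81.8% to 90.6% in wild-type animals. Il20rb itself gave 6 UMIs in knock-out and 10 in wild-type animals, and 3′ counts of an allele of unstated structure do not check the genotype. Markers of epithelial cells summed to 3.35 to 36 CPM (UMIs of the gene per 1000000 UMIs of the sum) in knock-out and 7 to 29.6 CPM in wild-type animals. Fibroblast markers summed to at most 7.2 CPM in knock-out animals and to 110 CPM in 1 wild-type animal. The cells fell into 37 clusters, made without the 7 genes and the other listed genes, and the clusters were named from markers: "cDC2-like" by Cd209a, Clec10a and Mgl2, "neutrophil-like" by genes such as S100a8 and S100a9, "ILC2-like" by Gata3 and Klrg1. The names are rebuilt, not the authors', and no cluster was named eosinophil-like. Only 2 cell barcodes occurred in both droplet wells.

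All levels below are raw CPM of UMIs summed over the cells of 1 animal, unless stated otherwise, and a lineage counts in an animal from 10 cells upward. CPM is a share of all UMIs and does not rank RNA per cell. Neutrophil-like cells had a median of only 1817 UMIs, so a high CPM there can rest on few UMIs per cell.

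Among the named lineages with 10 or more cells in at least 5 animals, Mt1 and Mt2 averaged highest in cDC2-like and macrophage-like cells. The few mast cell-like cells were high as well. Unnamed clusters, with 16.4% of cells and 17.1% of all UMIs, were not ranked. They held 19.2% of the Mt1 and 21.3% of the Mt2 UMIs. Mt1 (ENSMUSG00000031765) and Mt2 (ENSMUSG00000031762) lie side by side on chromosome 8 of GRCm38.p6, at 94178883 to 94180327 and 94172618 to 94173567. Mt1 gave 32803 UMIs and Mt2 2798. Their promoters are shown because metal response elements are the best known inputs of both genes. The 250 bases before each start come from RefSeq (GRCm38.p6), which held a window for 6 of the 7 genes; some of the starts it uses, those of Mt1 and Slc7a11 among them, lie inside the gene span given here. Capitals mark the cores of the metal response element (TGCACNC or TGCGCNC), the antioxidant response element (TGACNNNGC or TGAGNNNGC) and the amino acid response element (TGATGCAAA), each searched on both strands.
Mt1 (chr8:94178839-94179088, plus strand): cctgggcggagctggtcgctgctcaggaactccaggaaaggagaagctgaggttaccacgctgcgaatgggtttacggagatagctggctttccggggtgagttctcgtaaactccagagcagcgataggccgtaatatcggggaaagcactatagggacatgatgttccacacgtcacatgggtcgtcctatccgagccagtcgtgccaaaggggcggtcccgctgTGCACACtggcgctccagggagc
Mt2 (chr8:94172368-94172617, plus strand): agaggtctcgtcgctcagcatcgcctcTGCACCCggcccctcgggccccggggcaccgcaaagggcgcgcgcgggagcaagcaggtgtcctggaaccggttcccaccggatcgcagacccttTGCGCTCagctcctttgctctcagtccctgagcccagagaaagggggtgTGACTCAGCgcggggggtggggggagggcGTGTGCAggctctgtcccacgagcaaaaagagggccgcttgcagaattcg
The Mt1 window held 1 metal response core, at -23 to -17 from the start. The Mt2 window held 3, at -223 to -217, -128 to -122 and -50 to -44. Bases beyond these windows were not searched, and the Mt1 window ends inside the gene span. The counts therefore do not give the number of such cores of either gene and do not compare the genes. At least 1 such core stands in 21.4% of all 32851 promoter windows of this length, and 3 or more in 1.26%. The Mt2 window also held an antioxidant response core at -79 to -71, of the kind found in 23% of windows. These are matches of letters, not shown sites of binding.

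Mt1 averaged 1678 ± 476 CPM in cDC2-like cells (SD, n = 10 animals), then 1151 ± 273 in macrophage-like cells (n = 10), 1000 ± 251 in cycling cells (n = 7) and 660 ± 460 in monocyte-like cells (n = 8). Below these stood nonclassical monocyte-like cells at 380 ± 190 CPM (n = 6), cDC1-like cells at 212 ± 165 (n = 9) and migratory dendritic cells at 211 ± 124 (n = 5). T-like cells (112 ± 224), neutrophil-like cells (50.7 ± 45.7) and ILC2-like cells (27.6 ± 49.2) came last. The ranges over animals overlapped between every pair of neighbours in this order. Mt2 had a like order at the top, with 150 ± 58.7 CPM in cDC2-like cells, 119 ± 66.1 in macrophage-like cells and 73.4 ± 57.6 in cycling cells. Nonclassical monocyte-like cells, in the middle of the order for Mt1, were at the lower end for Mt2 (0.831 ± 2.04 CPM). The 20 mast cell-like cells, too few per animal for a mean, gave 1939 CPM of Mt1 (95% Poisson interval 1559 to 2384). They gave 366 CPM of Mt2 (213 to 586), and both intervals cover counting error only. Over the unnamed clusters, Mt1 ran from 333 CPM in cluster 12 to 2358 CPM in the 10 cells of cluster 30. The 140 cells of unnamed cluster 11 gave 1995 CPM.

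**Figure D1:**
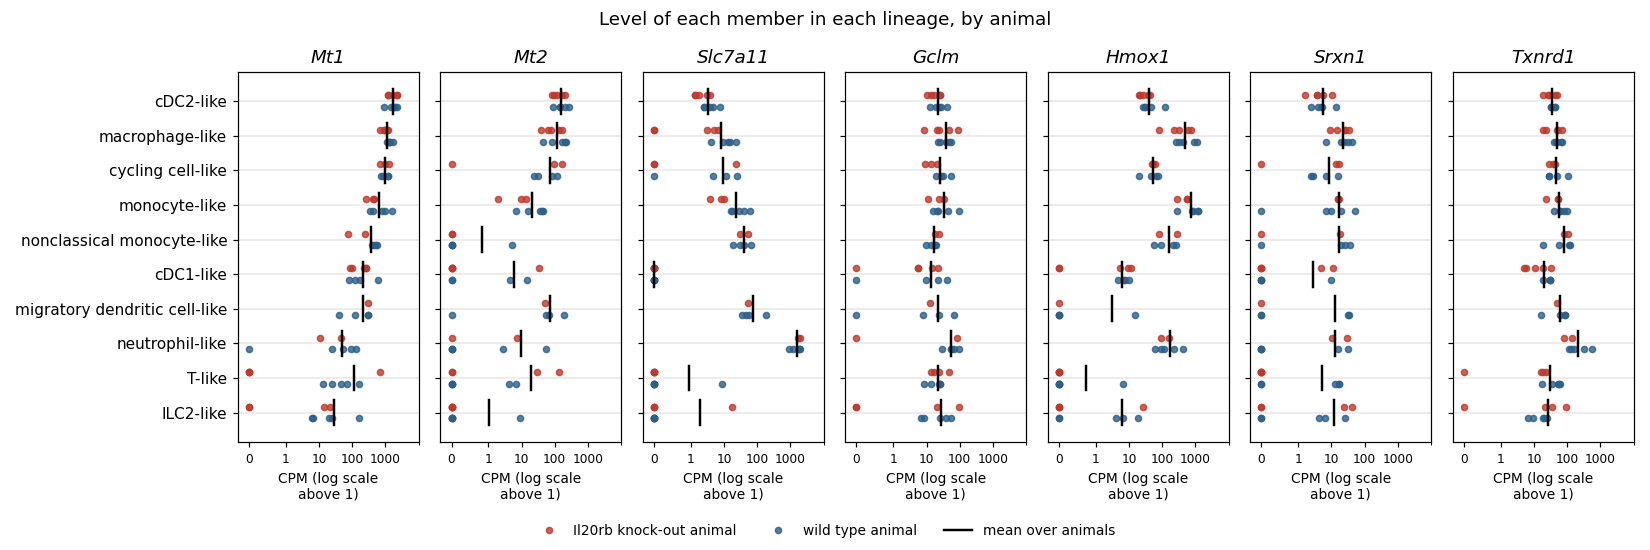
Level of each of the 7 genes (columns) in 10 lineages (rows), in CPM on an axis that is logarithmic above 1. Red points above are Il20rb knock-out animals, blue points below are wild-type animals and the bar is the mean over animals; Slc7a11 stands apart in neutrophil-like cells (mean 1615 CPM), while the Mt1 means are highest in the cDC2-like, macrophage-like and cycling rows (1678, 1151 and 1000 CPM).

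Within cDC2-like cells Mt1 differed more between clusters 16 and 17 than between animals. Cluster 16, led by Cd209a, Slc27a3 and Dcstamp, gave 4002, 3961, 3543, 3639 and 3284 CPM of Mt1 in KO1 to KO5, against 4277, 2799, 4652 and 3828 CPM in WT2 to WT5. Cluster 17, which shares Cd209a and Slc27a3 among its leading genes, gave 446, 367, 382, 357 and 420 CPM in KO1 to KO5, against 602, 382, 275 and 370 CPM in WT2 to WT5. In all 9 animals with enough cells, the lowest cluster 16 value (2799 CPM) was thus above the highest cluster 17 value (602 CPM), and the genotypes overlapped in both clusters. Mt2 followed, at 360 CPM over all cells of cluster 16 and 19.1 CPM over those of cluster 17. Cluster 28 (290 CPM of Mt1) was near the lower of these and cluster 24 (1243 CPM) between them. Among macrophages, cluster 31, led by Lyve1, had the highest Mt1 (2117 CPM) and Mt2 (298 CPM). There the animals spread widely for Mt1, with 665, 3589, 673 and 1784 CPM in KO1, KO2, KO3 and KO5, against 6086, 1175, 1108 and 2903 CPM in WT2 to WT5.

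The share of cells with an Mt1 UMI was 74.5% in cDC2-like cells (median depth 6984 UMIs) and 74% in macrophage-like cells (4908 UMIs), against 3% in B-like cells (2737 UMIs), taken as the background of free RNA. With every cell thinned to 1000 UMIs the shares were 44.9% in cDC2-like, 42.2% in macrophage-like and 1% in B-like cells. The top 10% of all cells held 69.3% of the Mt1 UMIs, and up to 182 came from 1 cell. Cells with Mt2 mostly had Mt1 as well. After thinning, 83.3% of the 252 cells with Mt2 had Mt1, and 12.6% of the 1671 cells with Mt1 had Mt2, against 0.958% of the 4383 without. In cDC2-like cells Mt2 had a UMI in 21.4% of the cells with Mt1 and in 2.33% of those without.

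Mt3, a metallothionein gene next to Mt2 and best known from brain, was added after its values were seen. It gave 809 UMIs in only 53 cells, and 715 of them came from 8 cells with 10 or more each. Both genotypes had such cells: KO1 gave 267 UMIs (up to 207 in 1 cell), against 239 in WT3 and 246 in WT4. Cluster 11, an unnamed cluster led by Mmp12, Mt3 and Lpl, held 11 of the cells and cluster 23, a macrophage-like cluster led by Gpnmb and Ccl8, held 14. In cluster 23 the 14 cells with Mt3 gave 1001 CPM of Mt2 and the 219 cells without it gave 131 CPM, at median depths of 8808 and 7543 UMIs. In cluster 11 the 11 cells with Mt3 gave 821 CPM of Mt2, against 247 CPM in the 129 without, at 10198 and 4319 UMIs. In such small sets these values are descriptions of single cells, and the deeper cells are also more likely to show a UMI.

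Slc7a11 was far higher in neutrophil-like cells than in any other lineage. It (ENSMUSG00000027737, chromosome 3, 50364936 to 50499087) gave 2455 UMIs, and 81.5% of them lay in neutrophil-like cells, which made up 9.76% of cells and 3.41% of all UMIs. Its promoter window is shown because it holds matches for both NRF2 and ATF4.
Slc7a11 (chr3:50443614-50443863, minus strand): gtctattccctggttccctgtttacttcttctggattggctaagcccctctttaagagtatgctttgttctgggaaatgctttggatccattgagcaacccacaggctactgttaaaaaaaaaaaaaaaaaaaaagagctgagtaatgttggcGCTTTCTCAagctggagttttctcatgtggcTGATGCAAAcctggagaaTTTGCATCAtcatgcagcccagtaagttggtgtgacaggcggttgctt
The window held the amino acid response core at -66 to -58 on its own strand and at -48 to -40 on the other, a motif that 0.225% of all promoter windows hold at least once. It also held 1 antioxidant response core, at -97 to -89.

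In neutrophil-like cells Slc7a11 stood at 1920 and 1699 CPM in KO1 and KO5, against 1780, 1176, 1959, 1877 and 894 CPM in WT1 to WT5. The knock-out values lay inside the wild-type range; the other 3 knock-out animals had 1 to 4 such cells. With 2 knock-out animals, under the minimum of 3 set for a test, the difference was not tested. The mean over all 7 animals was 1615 ± 414 CPM, and no animal of the next lineage reached the lowest of these. That lineage was migratory dendritic cells, known for Ccr7 and Fscn1, at 74.9 ± 63.4 CPM (n = 5), followed by nonclassical monocyte-like cells at 39.6 ± 17.2 and monocyte-like cells at 22.6 ± 18.7 CPM. A Slc7a11 UMI was seen in 83.1% of neutrophil-like cells (median depth 1817 UMIs; 70.2% after thinning to 1000 UMIs). At their full depth (median 8152 UMIs), 0 of 190 cDC1-like cells had one, which allows a share of cells with a UMI of up to 1.58% and sets no limit on cells that express the gene. The 3 neutrophil-like clusters were alike in level, at 1708 CPM in cluster 20, 1658 in cluster 25 and 1484 in cluster 27, although cluster 25 was led by Csf1, Osgin1 and Il1a and the others by Cxcr2 and S100a9. The genes most like Slc7a11 over 32 clusters of 30 or more cells were Lcn2 (Pearson r = 0.94), Wfdc21 (0.93) and Trem1 (0.93), known as neutrophil genes; clusters share libraries and depth, and these are descriptions.

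Gclm (ENSMUSG00000028124, chromosome 3, 122245487 to 122267215, 1040 UMIs) was spread far more evenly. It averaged 54.7 ± 31.8 CPM in neutrophil-like cells, 37.7 ± 23.1 in macrophage-like cells and 33.5 ± 27.6 in monocyte-like cells. The Gclm UMIs were 72 from 591 neutrophil-like cells, against 240 from 974 macrophage-like and 272 from 1195 monocyte-like cells. The other 7 of the 10 lineages measured in at least 5 animals lay between 13.4 ± 13.1 CPM (cDC1-like) and 27.8 ± 31.4 CPM (ILC2-like), and every neighbour in the order overlapped. Its highest clusters were neutrophil-like cluster 25 (98.1 CPM) and monocyte-like cluster 4 (82.5 CPM), led by Ccl24, Gja1, Ednrb and Arg1. Slc7a11 and Gclm correlated across clusters (r = 0.61), but within neutrophil-like cells a Gclm UMI was about as frequent in the 415 cells with Slc7a11 (5.30%) as in the 176 without (6.25%).

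Hmox1 was highest in monocyte-like and macrophage-like cells. It (ENSMUSG00000005413, chromosome 8, 75093618 to 75100593) gave 10061 UMIs, of which 46.9% lay in monocyte-like and 32.2% in macrophage-like cells. The means were 719 ± 366 CPM in monocyte-like cells (n = 8) and 496 ± 330 in macrophage-like cells (n = 10), with overlapping ranges, then 169 ± 130 in neutrophil-like and 165 ± 101 in nonclassical monocyte-like cells. The cDC2-like cells stood at 40.4 ± 30.9 CPM, and cDC1-like, migratory dendritic, ILC2-like and T-like cells at or below 6.27 CPM. It was led by monocyte-like cluster 4 (1294 CPM) and macrophage-like cluster 23 (1070 CPM), while the other macrophage-like clusters ranged from 147 to 402 CPM. Within macrophage-like cells the top 10% of cells held 77.8% of the Hmox1 UMIs, with up to 197 in 1 cell. Its most similar genes over clusters were Ctsb, a lysosomal protease (r = 0.94), Plin2, a lipid droplet coat protein (0.93), and Mpp1 (0.91).

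Srxn1 (ENSMUSG00000032802, chromosome 2, 152105524 to 152111376) was the member with fewest UMIs, 532. Its promoter window is given because it carries 2 antioxidant response cores, at -158 to -150 and -45 to -37; it also holds a metal response core at -19 to -13.
Srxn1 (chr2:152105274-152105523, plus strand): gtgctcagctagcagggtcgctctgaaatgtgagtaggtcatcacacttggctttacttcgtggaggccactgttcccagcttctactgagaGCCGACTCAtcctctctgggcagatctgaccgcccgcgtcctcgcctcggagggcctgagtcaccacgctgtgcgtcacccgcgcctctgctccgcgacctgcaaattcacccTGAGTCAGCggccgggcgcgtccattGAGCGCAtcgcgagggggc
Srxn1 averaged 23 ± 10.7 CPM in macrophage-like, 16.9 ± 14.9 in monocyte-like and 16.5 ± 14.4 in nonclassical monocyte-like cells, and no neighbours in its order were apart. Its top clusters were the same that led Gclm, with 50.8 CPM in neutrophil-like cluster 25 and 47.2 CPM in monocyte-like cluster 4. Txnrd1 (ENSMUSG00000020250, chromosome 10, 82833951 to 82897724, 1742 UMIs) averaged 214 ± 166 CPM in neutrophil-like cells, with 81.9 and 136 CPM in KO1 and KO5, against 127, 112, 544, 166 and 329 CPM in WT1 to WT5. The 2 high wild-type values came from 13 cells in WT3 and 44 in WT5. Over all animals, 165 Txnrd1 UMIs came from 591 neutrophil-like cells and 74 from 151 nonclassical monocyte-like cells. Nonclassical monocyte-like cells followed at 82.4 ± 39.3 CPM, and the lowest lineage, cDC1-like cells, still stood at 20.3 ± 11.3 CPM. Over clusters it was most like Ndel1 (r = 0.82) and Gsr, the glutathione reductase (0.80). A second protein-coding gene, Eid3, lies within the span of Txnrd1, and had 75 UMIs in the table.

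Across the 32 clusters the 7 genes did not all vary together. Mt1 and Mt2 correlated (r = 0.80), while Mt1 was near 0 with the thioredoxin and glutathione genes (with Txnrd1 -0.17, with Gclm 0.09, with Srxn1 -0.02). Mt1 and Slc7a11 ran opposite ways (-0.36). Slc7a11 went with Txnrd1 (0.74), and Hmox1 with Gclm (0.65) and Srxn1 (0.53). Clusters share libraries and depth, so these values carry no p. In single cells thinned to 1000 UMIs, Srxn1 had a UMI in 3.84% of the 729 cells with Hmox1 and in 0.939% of the 5325 without. Within neutrophil-like cells Txnrd1 had a UMI in 11.8% of the 415 cells with Slc7a11 and in 11.4% of the 176 without. Within monocyte-like cells Slc7a11 had a UMI in 6.45% of the 62 cells with Txnrd1 and in 1.41% of the 1133 without.

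**Figure D2:**
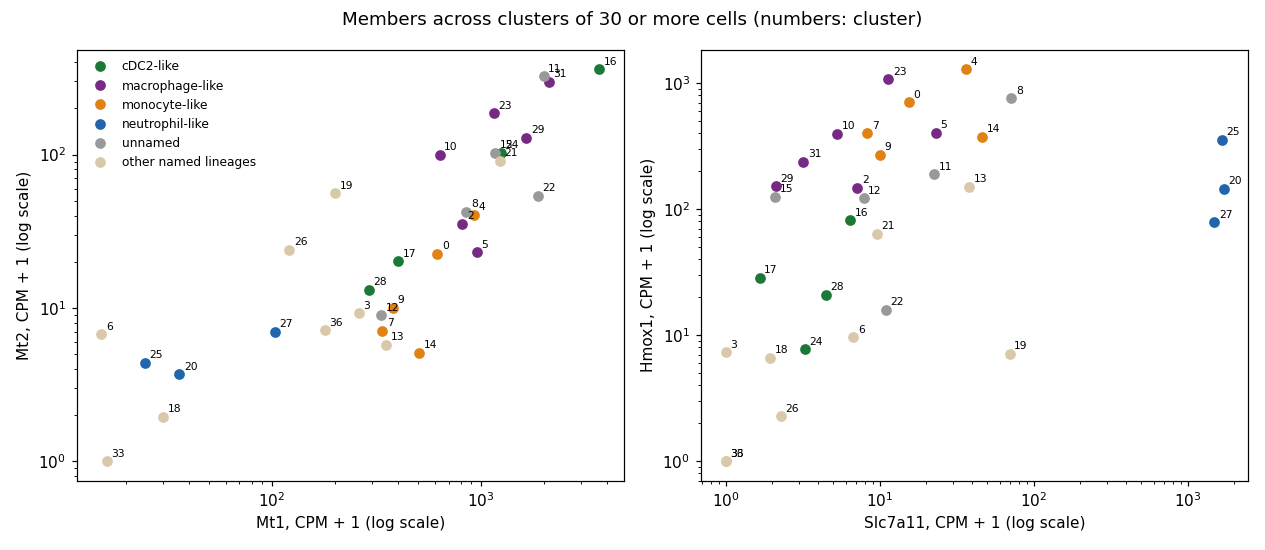
CPM + 1 of Mt2 against Mt1 (left) and of Hmox1 against Slc7a11 (right) over clusters of 30 or more cells, on log axes, with cluster numbers and colours by lineage. Mt1 and Mt2 climb together, with cDC2-like cluster 16 at the top (3685 and 360 CPM), while the 3 neutrophil-like clusters stand apart on the Slc7a11 axis (1484 to 1708 CPM).

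Genes around the members were counted by the lineage of highest pooled level, among the 10 lineages of 100 or more cells. Of 8 listed NRF2 regulators, 5 were highest in neutrophil-like cells, beside 10.3% of all 10257 genes with 100 or more UMIs. Nfe2l2 itself stood at 1024 CPM in neutrophil-like cells and at 404 CPM in nonclassical monocyte-like cells. The autophagy adaptor Sqstm1 had 397 CPM in neutrophil-like cells, while Bach1 (218 CPM) and Keap1 (71.4 CPM) were highest in monocyte-like cells. Of 18 other NRF2 targets, 6 were highest in neutrophil-like and 6 in macrophage-like cells. The ferritin chains Fth1 (28551 CPM) and Ftl1 (10263 CPM) and thioredoxin Txn1 (2507 CPM) peaked in neutrophil-like cells, and the peroxiredoxin Prdx1 (982 CPM) in macrophage-like cells. All 4 listed ATF4 genes with 100 or more UMIs peaked in neutrophil-like cells, with Cebpb at 4412 and Atf3 at 1251 CPM. Of 14 zinc and metal genes, 4 were highest in monocyte-like, 3 in neutrophil-like and 2 in cDC2-like cells, beside 5.89%, 10.3% and 3.77% of all genes in the same lineages. The zinc exporter Slc30a1, itself a target of MTF1, peaked in monocyte-like cells (92.8 CPM). Of 5 heme and iron genes, 3 were highest in macrophage-like cells (10.1% of all genes). They include the hemoglobin scavenger receptor Cd163 (152 CPM), which was also among the markers that named the macrophage-like clusters. Its peak there is thus not independent of the name.

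Over all CD45+ cells, no member passed the test between genotypes, and Slc7a11 was highest in the animals with the most neutrophil-like cells. By edgeR's quasi-likelihood test on summed UMIs (Benjamini-Hochberg adjusted p under 0.05, n = 5 per genotype), 0 of the 7 members were called, with 0 at an unadjusted p under 0.05 and 0 by DESeq2. Over all 10175 genes tested, 4 (0.0393%) were called. In bulk sums such as these, fewer cells of a type and less RNA per cell cannot be told apart. Slc7a11 stood at 55.4, 0.401, 5.54, 7.57 and 55.1 CPM in KO1 to KO5, against 310, 56.0, 16.0, 25.9 and 45.1 CPM in WT1 to WT5. WT1 was far above all other animals, and the rest overlapped. Neutrophil-like cells made up 7.75%, 0.256%, 0.369%, 0.962% and 7.36% of cells in KO1 to KO5, against 35.3%, 12.7%, 1.61%, 2.40% and 7.61% in WT1 to WT5. The 3 knock-out animals with under 1% neutrophil-like cells were the 3 with the lowest Slc7a11. Its log2 fold was -1.78 ± 1.15 (knock-out over wild type, ± SE; edgeR adjusted p = 0.857). With neutrophil-like cells left out, a choice made after seeing the data, the values were 10.1, 0.401, 4.99, 4.23 and 10.1 CPM in KO1 to KO5, against 33.8, 12.5, 9.03, 15.5 and 25.9 CPM in WT1 to WT5. Of these, WT3 alone lay within the knock-out range, and the log2 fold was -1.47 (edgeR adjusted p = 0.661).

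**Figure D3:**
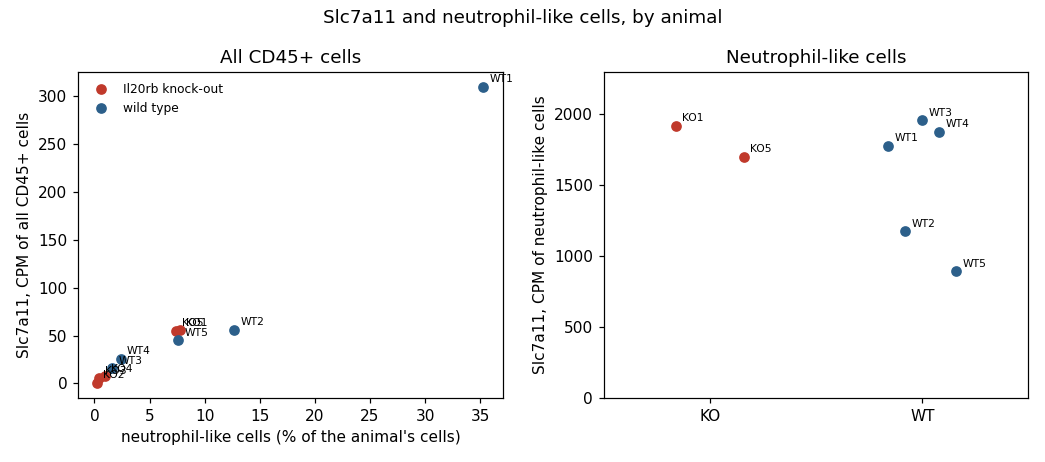
Left, Slc7a11 in CPM of all CD45+ cells against the percentage of neutrophil-like cells, 1 point per animal (red knock-out, blue wild type). Right, Slc7a11 in CPM within neutrophil-like cells for the 2 knock-out and 5 wild-type animals with 10 or more such cells; the knock-out points (1920 and 1699 CPM) lie within the wild-type range.

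The knock-out and wild-type values overlapped for each of the other 6 members. Mt1 had 676, 929, 1258, 1123 and 561 CPM in KO1 to KO5, against 764, 1319, 955, 1145 and 1001 CPM in WT1 to WT5 (log2 fold -0.14 ± 0.17, edgeR adjusted p = 0.924). The lowest Mt1 values, in KO5, KO1 and WT1, belonged to the 3 animals with the most monocyte-like cells (44.8%, 44.2% and 28.2% of their cells), and the part of that share in the result was not tested. Mt2 had 64.2, 65.8, 102, 95.9 and 40.0 CPM in knock-out animals, against 58.4, 134, 81.9, 74.6 and 106 CPM in wild-type animals (-0.25 ± 0.23, adjusted p = 0.906). Hmox1 had 417, 48.1, 167, 195 and 183 CPM in knock-out animals, against 562, 370, 89.4, 228 and 371 CPM in wild-type animals (-0.62 ± 0.62, adjusted p = 0.910). Gclm (-0.62 ± 0.33), Txnrd1 (-0.44 ± 0.29) and Srxn1 (-0.40 ± 0.43) had adjusted p of 0.804 to 0.912, and WT1 was the highest animal for each of them.

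In monocyte-like cells 1 member was called: Slc7a11 fell in knock-out animals. It stood at 7.91, 3.84 and 9.74 CPM in KO1, KO4 and KO5, from 19, 2 and 16 UMIs, against 58.9, 17.1, 15.8, 39.7 and 27.6 CPM in WT1 to WT5, from 96, 6, 1, 8 and 4 UMIs. The genotypes did not overlap, where KO2 and KO3, with 7 and 0 monocyte-like cells, do not enter. How many of all genes tested separate in this way was not counted, so the separation is description only. The log2 fold was -2.31 ± 0.41 by edgeR's quasi-likelihood test (adjusted p = 0.0347, 3 against 5 animals). It was 1 of 6 members that passed the filter on low counts, in a comparison in which 6 of 4684 genes (0.128%) were called; Srxn1 did not pass it. The call is not firm: it was lost without KO1, KO4 or KO5 (adjusted p = 0.168, 0.0988 and 0.274), Slc7a11 fell under the filter without WT1, WT4 or WT5, and DESeq2 gave it no adjusted p and called 0 members. Marker gates in place of clusters gave -1.87 (adjusted p = 0.213), and well 2 alone gave -3.22 (adjusted p = 0.0788).

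The monocyte-like cells of the genotypes were not the same mixture. Clusters 0, 7 and 9, led by interferon-induced genes such as Ifi208 and Ifi205, held 72.2%, 70.5% and 85.9% of these cells in KO1, KO4 and KO5, against 29.2%, 57.1%, 61.5%, 61.1% and 53.8% in WT1 to WT5. Within cluster 4, of the Arg1 and Ccl24 type, Slc7a11 stood at 1.93, 0 and 6.11 CPM in KO1, KO4 and KO5, against 66.4 and 18.3 CPM in WT1 and WT2, the animals with 10 or more such cells. Within cluster 9 it stood at 2.34, 0 and 7.01 CPM in the knock-out animals, against 44.6, 0 and 39.1 CPM in WT1, WT2 and WT4. Neither cluster was tested, and how many of all genes separate by genotype in cluster 4 was not counted. All 9 neutrophil markers together gave 139, 181 and 203 CPM in the monocyte-like cells of KO1, KO4 and KO5, from 8, 5 and 7 detected markers, against 159, 1257, 190, 74.4 and 117 CPM in WT1 to WT5, from 8, 7, 5, 5 and 3. The part of neutrophil RNA in the Slc7a11 difference was not tested. Unnamed clusters 8 and 12 each had 2 monocyte markers raised, under the 3 needed for the name, and do not enter. Cluster 8 held 31 knock-out and 122 wild-type cells, at 70.5 CPM of Slc7a11. Cluster 12 held 133 knock-out and 249 wild-type cells, at 6.87 CPM. How the difference depends on leaving these 2 clusters out was not tested.

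The other 5 tested members had negative log2 folds in monocyte-like cells that did not pass. At an unadjusted p under 0.05, edgeR had 4 of the 6 members, Slc7a11 included, and 443 of all 4684 genes. Mt2 had 9.57, 1.92 and 14.0 CPM in KO1, KO4 and KO5, against 36.8, 40.0, 15.8, 44.6 and 6.91 CPM in WT1 to WT5, with WT5 inside the knock-out range (log2 fold -1.72 ± 0.42, edgeR adjusted p = 0.174). Mt1 had 412, 252 and 442 CPM in the knock-out animals, against 987, 794, 348, 1621 and 421 CPM in the wild-type animals, of which WT3 and WT5 overlapped with them (-1.19 ± 0.54, adjusted p = 0.576). Hmox1 had 557, 561 and 282 CPM in knock-out animals, against 1186, 863, 285, 1234 and 787 CPM in wild-type animals (-0.94 ± 0.45, adjusted p = 0.587), and WT3 lay within the knock-out range. In cluster 4, where Hmox1 was highest, it had 635, 535 and 446 CPM in KO1, KO4 and KO5, against 1914 and 1956 CPM in WT1 and WT2. Genotypes were not tested within clusters. How many of all genes separate in this way in cluster 4 was not counted, so these values are description only. In cluster 0 Hmox1 had 842, 1477 and 323 CPM in the knock-out animals, with WT1 between them at 751 CPM. Gclm (-1.46 ± 0.51, adjusted p = 0.357) and Txnrd1 (-0.82 ± 0.30, adjusted p = 0.338) overlapped between genotypes. The median log2 fold of all genes tested in these cells was -0.0341. As the members were chosen from these data and share the same animals, their common sign is description only.

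**Figure D4:**
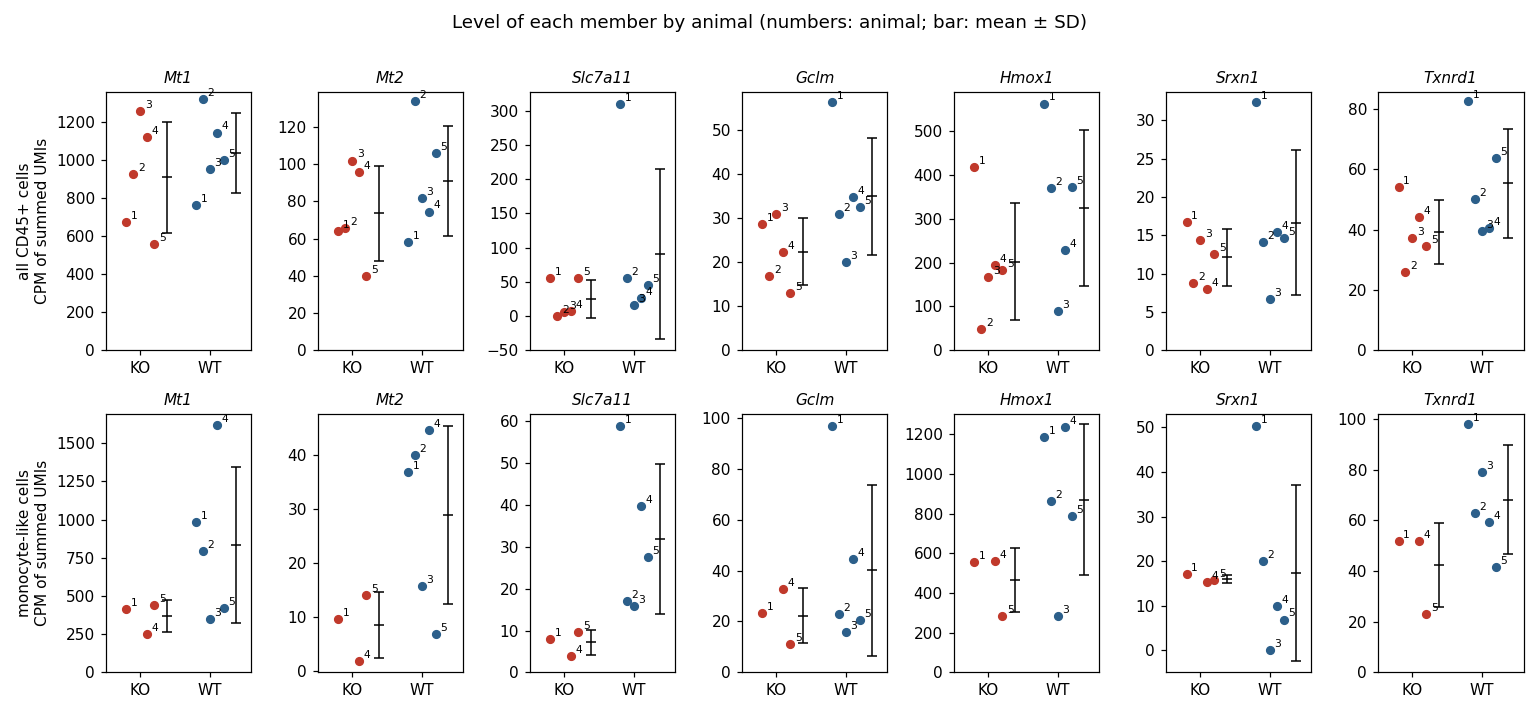
Level of each gene in CPM by animal, over all CD45+ cells (top) and in monocyte-like cells (bottom). Red points are knock-out animals on the left, blue points wild-type animals, numbered by animal, and the black bar is mean ± SD. In monocyte-like cells Slc7a11 was at most 9.74 CPM in knock-out and at least 15.8 CPM in wild-type animals. How many of all genes separate in this way was not counted. WT1 is the highest point in the top row for 5 genes.

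In macrophage-like cells 0 of 6 tested members were called by edgeR, where 1 of 5323 genes (0.0188%) was, and 0 by DESeq2. At an unadjusted p under 0.05, edgeR had 1 of the 6 members, beside 237 of all 5323 genes. Mt1 had 1115, 673, 929, 1180 and 908 CPM in KO1 to KO5, against 1659, 1352, 1135, 1305 and 1256 CPM in WT1 to WT5, and overlapped only through KO4 and WT3 (log2 fold -0.45 ± 0.17, adjusted p = 0.957). Hmox1 had 754, 78.8, 600, 229 and 322 CPM in knock-out animals, against 890, 1106, 252, 315 and 416 CPM in wild-type animals (-0.53 ± 0.64, adjusted p = 0.995), which overlapped widely. Slc7a11, under the filter here, gave 7, 0, 0, 1 and 2 UMIs in KO1 to KO5 (6.49, 0, 0, 3.01 and 5.14 CPM), against 7, 7, 11, 20 and 2 UMIs in WT1 to WT5 (15.5, 9.11, 12.9, 22.8 and 4.16 CPM), which overlapped. With no filter its log2 fold was -1.82 (edgeR adjusted p = 0.138), and by DESeq2 -1.95 (adjusted p = 0.999). Mt2 (-0.44 ± 0.50), Txnrd1 (-0.21 ± 0.30), Srxn1 (-0.05 ± 0.40) and Gclm (0.03 ± 0.48) had adjusted p of 0.990 or above by edgeR; the signs of the last pair depended on the animals and settings used.

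In cDC2-like cells, which had the highest Mt1 and Mt2 means of the ranked lineages, 0 of 5 tested members were called by edgeR. There were 0 at an unadjusted p under 0.05 and 0 by DESeq2. Among 5925 genes tested by edgeR, 0.0675% were called. Mt1 had 1177, 1664, 2224, 2242 and 1176 CPM in KO1 to KO5, against 925, 2207, 1517, 1891 and 1753 CPM in WT1 to WT5 (log2 fold 0.05 ± 0.27, adjusted p = 1). Mt2 had 82.4, 120, 162, 204 and 96.6 CPM in knock-out animals, against 86.1, 263, 149, 140 and 201 CPM in wild-type animals (-0.33 ± 0.31, adjusted p = 1). The groups overlapped throughout for both genes, and the sign for Mt1 changed with the setting. Hmox1 (-0.74 ± 0.48), Gclm (-0.30 ± 0.32) and Txnrd1 (-0.12 ± 0.24) were likewise not called. In cycling cells (3 knock-out and 4 wild-type animals) 0 of 4 tested members were called by edgeR and 0 by DESeq2, with 0 at an unadjusted p under 0.05 and 0.0275% of 3633 genes called. Mt1 had a log2 fold of -0.05 ± 0.24 there and Mt2 of 0.10 ± 1.08. In cDC1-like cells Mt1 alone passed the filter (-0.41 ± 0.64, edgeR adjusted p = 0.959) and was not called, with 0 at an unadjusted p under 0.05 and 0 by DESeq2, where 0.231% of 2168 genes were. No member passed the filter in ILC2-like or T-like cells. Differences of the genotype effect between lineages were not tested, and all these comparisons share the same animals.

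**Figure D5:**
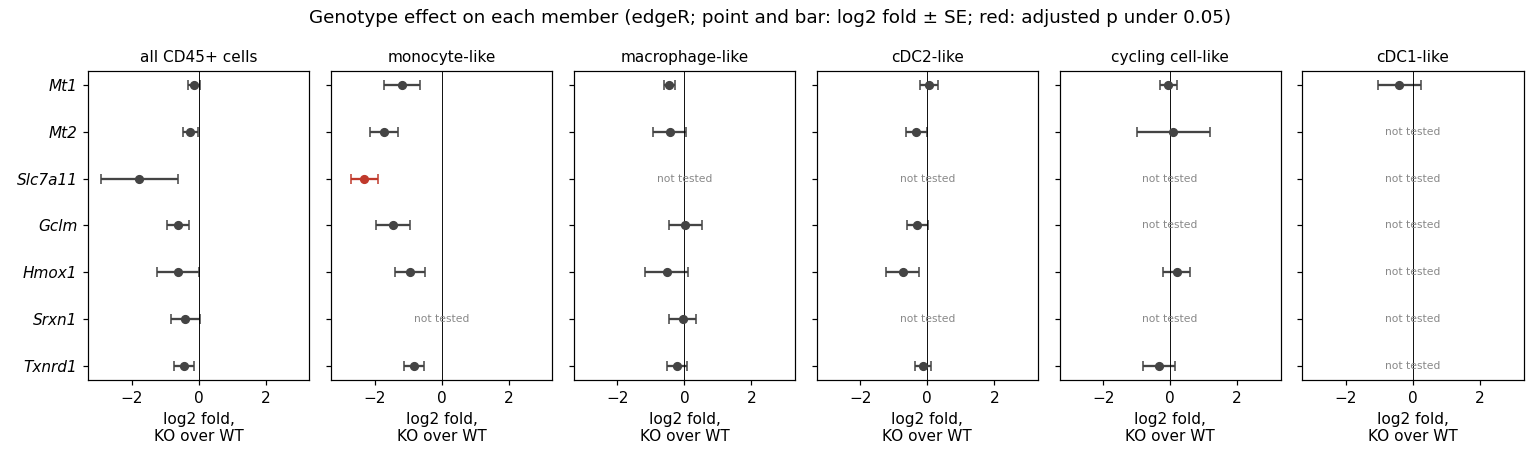
Log2 fold of each gene, knock-out over wild type, ± SE from edgeR in all CD45+ cells and 5 lineages; red marks an adjusted p under 0.05 and "not tested" a gene under the filter on low counts. Slc7a11 in monocyte-like cells (-2.31 ± 0.41) is the 1 red point.

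The surrounding lists gave few genotype calls. Among NRF2 regulators, other NRF2 targets, zinc and metal genes, glutathione and peroxidase genes, ATF4 genes and heme and iron genes, edgeR called 0 genes in all CD45+ cells (3 of 63 at an unadjusted p under 0.05, beside 697 of all 10175 genes, and 0 called by DESeq2). Both tools also called 0 genes of these lists in every lineage tested, with 0 to 5 at an unadjusted p under 0.05 by edgeR. The 5 were of 49 in cDC2-like cells, beside 275 of all 5925 genes. DESeq2 gave an adjusted p to only 20 of 68 genes of these lists in monocyte-like and 5 of 60 in ILC2-like cells. Over all CD45+ cells the 18 tested other NRF2 targets had 10 positive and 8 negative folds with a median log2 of 0.0214. The 14 zinc and metal genes had 6 and 8 with a median of -0.0868, beside 0.0054 over all genes tested. The 7 members had 0 and 7 with a median of -0.442. The members were chosen by their levels in these same cells and share the same animals, so their joint sign is description only. In monocyte-like cells the 13 tested other NRF2 targets had 3 positive and 10 negative folds (median -0.0711), beside -0.0341 over all genes. Glucocorticoid-responsive genes, which share an inducer with Mt1 and Mt2, had 1 positive and 7 negative folds in all CD45+ cells (median -0.574). Of these 8 genes, 0 were called by edgeR or DESeq2. At an unadjusted p under 0.05 each tool had 4 of them, beside 697 of all 10175 genes by edgeR. A part of glucocorticoids in the Mt1 and Mt2 levels was not tested. In cDC2-like cells 2 of 6 tested fell: Fkbp5, an immunophilin of the glucocorticoid receptor, averaged 16.4 ± 6.30 CPM in knock-out and 56.9 ± 23.4 in wild-type animals (TMM-scaled CPM, SD, n = 5 each; log2 fold -1.74 ± 0.30, edgeR adjusted p = 0.0364). Ddit4, an inhibitor of mTORC1, averaged 14.7 ± 5.99 CPM in knock-out and 39.5 ± 5.93 CPM in wild-type animals (-1.41 ± 0.25, adjusted p = 0.0364). DESeq2 called both, but with 1 animal left out the edgeR adjusted p ran from 0.0246 to 0.196 for Fkbp5, kept only without WT1 or WT3, and from 0.0202 to 0.187 for Ddit4, kept only without KO1 or WT1. EdgeR without its robust option lost both (adjusted p = 0.104 for Fkbp5 and 0.0916 for Ddit4). Well 1 alone lost Fkbp5 (edgeR adjusted p = 0.0954). Marker gates and clusters at resolution 1 kept both. In cDC1-like cells Tsc22d3, which encodes the protein GILZ, fell by 1.28 ± 0.25 on the log2 scale (124 ± 26.5 CPM in 5 knock-out and 302 ± 108 in 4 wild-type animals, edgeR adjusted p = 0.0164). That call was lost by DESeq2 (adjusted p = 0.111) and without KO1, KO2, KO4, WT4 or WT5 (0.0737, 0.0875, 0.0976, 0.056 and 0.171). EdgeR also lost it without the robust option (adjusted p = 0.0865) and with 20 or more cells per animal (0.175). Well 1 alone, marker gates and clusters at resolution 1 lost it as well (edgeR adjusted p = 0.399, 0.058 and 0.0534).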

How the data were processed

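The authors deposited raw UMI counts, not normalized, as 1 table of genes by cells. Each column header names a cell's well, genotype and hashtag. The submitters' processing notes list mm10, R 4.0.5 and Cell Ranger 6.0.1 without saying what each was used for; how hashtags were called, the annotation and the strand setting are not given in the sources. Every cell had at least 1000 UMIs and 501 genes, so cells had been filtered before deposit. No cell was removed here. Scrublet marked 3 cells as doublets (0.0496%), and whether it finds doublets in cells already filtered was not tested. In scanpy 1.11.5, 2000 variable genes without the 88 listed genes gave 30 principal components and Leiden clusters (igraph 0.11.9, resolution 2). Clusters were named from 179 markers of 24 types, with at least 3 markers raised by 1 log2 unit and leading genes that did not go against the name.

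The animal was the replicate. Counts were summed per animal and lineage (10 or more cells, 3 or more animals per genotype) and tested by edgeR 4.0.16 (filterByExpr, TMM, robust quasi-likelihood fit, Benjamini-Hochberg over all genes tested), with DESeq2 1.42.0 as an alternative. Other scaling, filters, cell minimums, single wells, doublet scores, marker gates and leaving out each animal were also tried. The code was tested on simulated counts. The p-values measure the spread between these 10 animals. Named genes were the 7 members, listed genes that were called, up to 5 listed genes of highest level per list, the 3 genes most like each member (log2 of CPM + 10, genes of 20 or more CPM), and lineage markers. Members and lists were chosen with earlier results of these data known. Genes overlapping a member were looked up in the RefSeq table (GRCm38.p6), which also gave gene positions; a separate table of names gave symbols for 32158 gene identifiers. Poisson and binomial intervals cover counting error only.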

Additional observations from a re-analysis of the deposited data

Results flagged for a closer look

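Single animals stood apart from the rest of their genotype in 8 of the 75 groups looked at (7 genes, both genotypes, all CD45+ cells and 6 lineages), or 10.7%. The cut-offs flag about 1 in 20 groups of normally distributed values. Some groups here rest on few UMIs, and where all other animals are at 0 a flag is certain. The 10.7% is thus not measured against chance. Over all CD45+ cells, Slc7a11 in WT1 (310 CPM) was far above the next wild-type animal (56.0 CPM), and WT1 also had the largest share of neutrophil-like cells (35.3%). In cDC2-like cells, Hmox1 was highest in WT5 (125 CPM, the next at 45.1) and Srxn1 in WT4 (13.8 CPM, the next at 5.01). In cDC1-like cells, Mt1 was highest in WT2 (608 CPM, the next at 167), Mt2 in KO4 (32.8 CPM, all other knock-out animals at 0) and Srxn1 in WT4 (9.87 CPM, the others at 0), and Txnrd1 was lowest in WT2 (18.2 CPM, the next at 29.6). In neutrophil-like cells, Mt2 was highest in WT4 (55.2 CPM, from 12 cells, the next at 2.76).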

How the results depend on the processing

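Each member's level in its highest lineage moved by less than 1 SD under every alternative run, but at resolution 1 Hmox1 was highest in macrophage-like cells (478 CPM), and in well 2 alone Srxn1 was highest in neutrophil-like cells (25.9 CPM). In monocyte-like cells the count of members called was 0 to 1 when 1 animal was left out. It was 0 in well 1, in well 2, with marker gates and at resolution 1 (added after seeing the data). With no filter on low counts it was 3 (Slc7a11, Mt2 and Gclm), where 105 of all 13880 genes were called. Slc7a11 was under the filter in well 1 and at resolution 1, and so had no test there; the cause was not tested. With no filter, 1 member (Mt2) was called higher in T-like cells, on 15 UMIs in KO3, where 10 of all 12844 genes were called. In all lineages but these, every count of members called stayed at 0.

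Among folds that were never called, these changed sign. In cDC2-like cells Mt1 gave -0.11 in well 2 and -0.10 with gates, Hmox1 0.03 and Txnrd1 0.06 in well 1. In cycling cells Mt2 gave -0.65 with 20 or more cells per animal, -0.04 without the top 5% of doublet scores, -0.23 with gates and -0.78 at resolution 1. In macrophage-like cells Hmox1 gave 0.19 in well 1, Gclm -0.54 in well 2, and Srxn1 0.01 without the top doublet scores, 0.08 with gates and 0.06 at resolution 1. With 1 animal left out, ranges were -0.63 to 0.11 (Srxn1, all CD45+ cells), -0.63 to 0.65 (Mt1, cDC1-like), -0.10 to 0.17 (Mt1) and -0.28 to 0.04 (Txnrd1) in cDC2-like cells, -0.28 to 0.16 (Mt1), -0.55 to 0.85 (Mt2) and -0.08 to 0.46 (Hmox1) in cycling cells, and -0.33 to 0.22 (Srxn1) and -0.44 to 0.29 (Gclm) in macrophage-like cells. No paired analysis was possible because the knock-out and wild-type animals carry different hashtags and share no number that the labels give. Depth limits Srxn1, Gclm and, outside neutrophils, Slc7a11, whose monocyte-like counts were 1 to 96 UMIs per animal.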
